A study of Homo sapiens with 9 samples.

Results

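OEC-M1 is a cell line from an oral squamous cell carcinoma, a head and neck cancer. The comparison described here set OEC-M1 cells transfected with siHIF1A, a small interfering RNA against HIF1A, beside the same cells transfected with siControl, a non-targeting one. It used 6 of the 9 arrays of the series, chosen by their transfection label, with 3 arrays in each group. The labels give 1% O2 and 72 h of transfection for all of them, and the cells were under hypoxia for 18 h, so no array measured cells at normal oxygen. The study names a single siRNA against HIF1A for its arrays, and effects of that siRNA other than on its target were not tested here. Besides it, the study used another HIF1A siRNA in PCR of 7 genes picked from the arrays and in migration and invasion assays. Both groups were the same line, and nothing in the labels says that arrays of a group came from separate cultures, so P values measure the spread between these arrays, which may be technical.

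HIF-1α, the product of HIF1A, is the oxygen-labile subunit of the transcription factor HIF-1. With oxygen, prolyl hydroxylases (EGLN1, EGLN2 and EGLN3) mark it for destruction through the von Hippel-Lindau protein. Without oxygen it persists, pairs with ARNT and binds short hypoxia response elements with the core letters ACGTG or GCGTG near genes of glucose uptake, glycolysis, acid export, angiogenesis, collagen processing and mitochondrial turnover. In head and neck tumours such genes form a classifier of hypoxia. The comparison therefore asked which transcripts of hypoxic cells depended on HIF1A.

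Levels below are log2 probe intensities after background correction and quantile normalization, and a gene is represented by its brightest probe, so a level cannot be set against that of another gene. A change of 1 is 2-fold. Median spot intensities ran from 992.5 to 2807.5 in siControl and from 2132 to 3560 in siHIF1A cells, and 80.8% to 88.5% of spots were well above background. The dimmest array, siControl replicate 3, stood apart. It correlated with the other siControl arrays at a mean r of 0.944 and with the siHIF1A arrays at 0.939, across genes, where every other array had a mean r of at least 0.956 within its group. Each slide held 1 array of each group, and each group lay at the same position on every slide, so slide position and group cannot be told apart. Over the genes with a symbol, the median difference was -0.01 on slide 1, 0.01 on slide 2 and -0.30 on slide 3, which holds siControl replicate 3. Values without this array are given below beside calls that it decides and beside fold changes that move most without it. Of 12 squamous epithelium markers, 10 were well above background on all 6 arrays, while KRT5, a basal keratin, was on none. Among fibroblast markers, COL3A1, LUM and PDGFRA were well above background on no array. Probes of all 5 blood cell markers were well above background on every array, so this call alone does not mark a gene as a product of these cells. In these marker lists FAP, a fibroblast protease, fell by 0.66 on the log2 scale and HBB, a globin, rose by 1.58 on 4 measured arrays, and their part in the results below was not tested. Their summed levels ran from 15.48 to 16.76 on siControl and 16.76 to 16.80 on siHIF1A arrays for blood cell markers, and from 15.84 to 17.13 and 16.44 to 16.79 for the 9 fibroblast markers.

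HIF1A itself was measured first. Its level was 16.82, 16.35 and 17.28 on the siControl arrays and 14.62, 14.25 and 14.70 on the siHIF1A arrays. The groups did not overlap, and the smallest fall within a slide was -2.10. The log2 fold change was -2.29 (standard error 0.31, adjusted P = 0.489 from limma), or 4.89-fold lower, and a second HIF1A probe gave -2.45. It passed an unadjusted P of 0.05, which was the study's threshold for its arrays, in every alternative that kept this threshold. RNA came from bulk cells, and fewer cells of a type and less RNA per cell cannot be told apart in any result below.

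Across all 47369 genes tested in limma, 1576 fell (3.33%) and 973 rose (2.05%) at the unadjusted threshold. With scaling at the 75th percentile in place of quantile normalization, 1546 were lower and 841 higher. With the scanner's processed signal at the 75th percentile, which also replaces the background correction, 1120 were lower and 1311 higher, so the excess of falls over all genes was not present in every processing. After Benjamini-Hochberg adjustment 0 genes passed in limma, with a smallest adjusted P of 0.273, and 1 gene passed with the slide as a block. Among the 22291 tested genes with a symbol, 824 fell (3.7%) and 423 rose (1.9%), and the median log2 fold change was -0.04. These shares are the background for the gene lists below. In 10 lists of genes tied to HIF-1 and hypoxia, 57 of 166 genes fell (34.3%) and 1 rose, with a median of -0.47, and without siControl replicate 3 the number that fell was 52. Of the 57, 36 passed in all 6 fits that left out 1 array. The lists and their members were chosen with earlier results of these data known, and the 57 include HIF1A, the siRNA target.

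**Figure D1:**
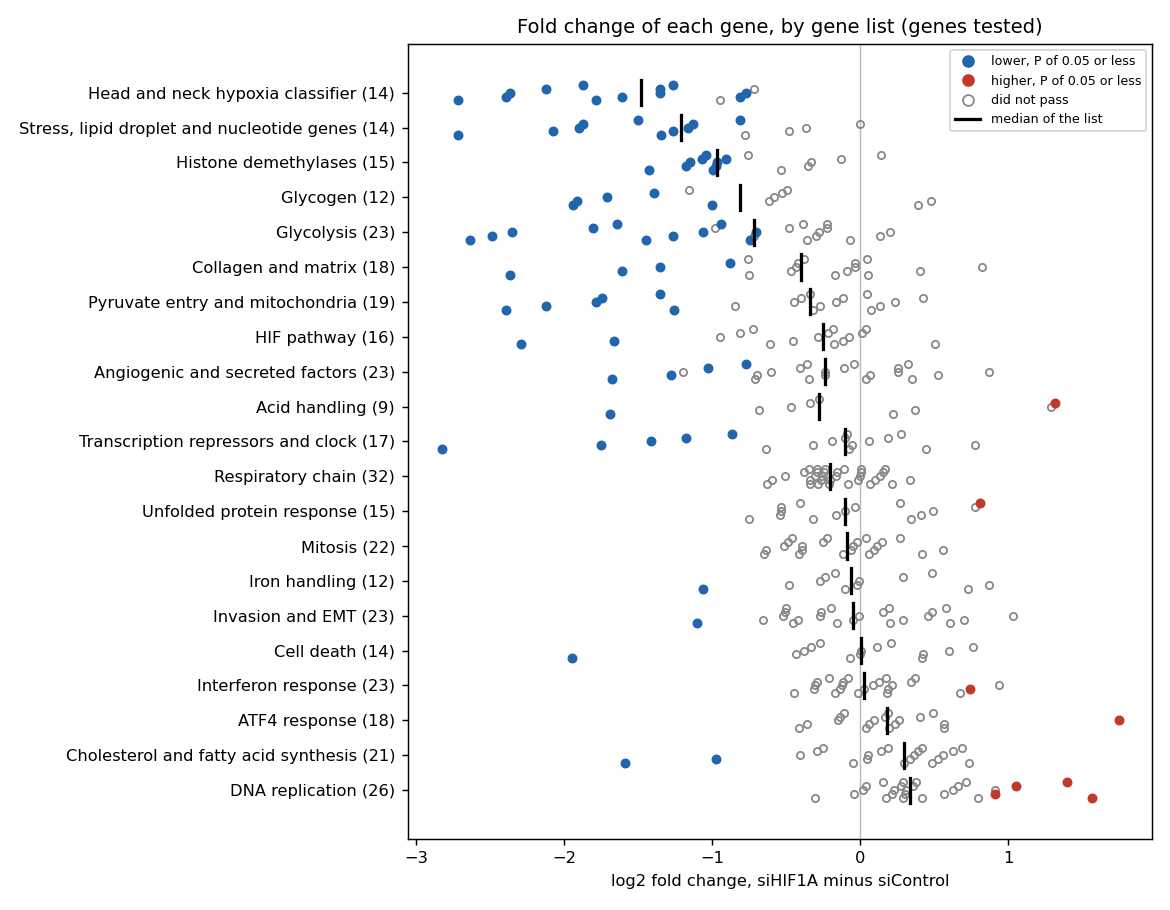
Log2 fold change of siHIF1A over siControl cells (horizontal axis) for every tested gene of 21 lists (rows, with the number of genes tested). Filled points passed an unadjusted P of 0.05 in limma, lower in blue and higher in red, open points did not, and the black bar is the median of the list, which runs from -1.48 for the hypoxia classifier to 0.33 for DNA replication.

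With locus, open reading frame, LINC and clone names left out, the largest falls with a symbol were BHLHE41, ANKRD37, SAMSN1, PFKFB1, KISS1R, ENO2, FAM162A, LOX, PFKFB4, CFAP96, HOXA13 and HIF1A. Their log2 fold changes ran from -2.83 to -2.29. LINC01111, left out by this rule, had -2.43. In all 12 the groups did not overlap, and all 12 passed with any 1 array left out. Of the 12, 8 belong to the hypoxia lists, HIF1A itself among them. BHLHE41, a helix-loop-helix repressor of the circadian system, had levels of 11.36, 11.42 and 11.92 in siControl and 8.50, 8.55 and 9.16 in siHIF1A cells. Its fall was nearly the same on every slide, at -2.86, -2.87 and -2.76, with a log2 difference of -2.83 (standard error 0.29). ANKRD37, an ankyrin repeat protein known as a HIF-1 target, had 15.48, 14.59 and 15.75 against 12.81, 11.80 and 13.05. Both groups had their lowest value on slide 2, and the slide differences of -2.67, -2.79 and -2.70 varied less than the levels. HOXA13, a homeobox transcription factor, had 12.49, 11.88 and 13.03 against 9.90, 10.43 and 10.17. SAMSN1, an adaptor protein known from blood cells, fell by 2.70 on its brightest probe, while its other probes gave 0.05 and 0.15 and did not pass. The mean of its probes gave -0.83, so the size of the fall depended on the probe.

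KISS1R, the receptor for kisspeptin peptides, had 10.36, 10.28 and 11.56 against values between 7.98 and 8.56, and was well above background on every siControl array and on no siHIF1A array. The group mean was at least 5.85-fold lower, a bound that takes the measured signal on the siHIF1A arrays as its floor. That bound leaves out the spread between arrays. CFAP96, named for cilia and flagella, had 10.42, 10.79 and 12.38 against 8.22, 8.96 and 9.36. Its fall of 2.35 on the log2 scale was -1.76 without siControl replicate 3 and -1.61 with array brightness as a covariate. One transcript without a symbol, ENST00000523572, had a larger fall than any of these. Its levels were 12.80, 12.66 and 13.83 against 8.66, 8.85 and 9.44, a log2 fold change of -4.11, and with the slide as a block it was the only gene to pass adjustment (adjusted P = 0.0291 from limma).

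**Figure D2:**
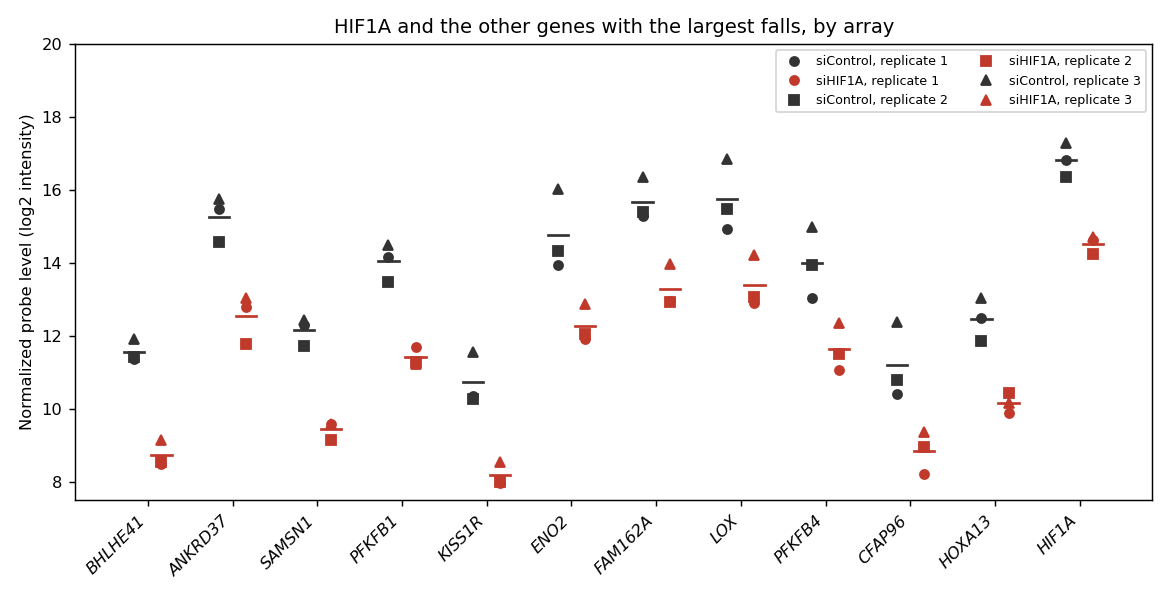
Normalized log2 probe level (vertical axis) on each array for HIF1A and the other 11 genes named as the largest falls. Black points are siControl and red points siHIF1A arrays, the symbol shape gives the replicate and with it the slide, and bars are group means. In each gene all 3 siHIF1A arrays lie below all 3 siControl arrays, and siControl replicate 3 is the highest siControl array.

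Promoter sequence was set beside these falls, because HIF-1 binds the letters named above. The sequences below are the 250 bases before the start site of each gene, 5′ to 3′ on the gene's strand, from RefSeq on GRCh38.p14. They are shown for the list members among the largest falls and for the next classifier gene, BNIP3, where the promoter held either motif. Capitals mark ACGTG and GCGTG, or CACGT and CACGC where the motif is on the other strand. The palindrome CACGTG was counted on both strands, and neighbouring matches may share a base.
BHLHE41 (chr12:26125038-26125287, minus strand): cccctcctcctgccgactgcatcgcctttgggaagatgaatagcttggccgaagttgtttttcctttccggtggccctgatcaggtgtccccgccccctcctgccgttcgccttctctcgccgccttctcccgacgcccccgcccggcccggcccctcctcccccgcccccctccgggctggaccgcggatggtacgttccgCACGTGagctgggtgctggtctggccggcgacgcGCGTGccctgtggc
ANKRD37 (chr4:185396591-185396840, plus strand): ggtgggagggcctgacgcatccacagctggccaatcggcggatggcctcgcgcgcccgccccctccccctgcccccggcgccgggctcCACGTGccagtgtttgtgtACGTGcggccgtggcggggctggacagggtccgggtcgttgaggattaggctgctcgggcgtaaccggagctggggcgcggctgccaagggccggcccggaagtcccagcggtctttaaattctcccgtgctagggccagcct
ENO2 (chr12:6914330-6914579, plus strand): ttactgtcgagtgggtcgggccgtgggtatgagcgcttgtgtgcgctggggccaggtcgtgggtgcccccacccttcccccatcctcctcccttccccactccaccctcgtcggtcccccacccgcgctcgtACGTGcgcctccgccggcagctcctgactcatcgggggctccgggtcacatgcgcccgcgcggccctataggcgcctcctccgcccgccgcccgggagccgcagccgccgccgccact
FAM162A (chr3:122383932-122384181, plus strand): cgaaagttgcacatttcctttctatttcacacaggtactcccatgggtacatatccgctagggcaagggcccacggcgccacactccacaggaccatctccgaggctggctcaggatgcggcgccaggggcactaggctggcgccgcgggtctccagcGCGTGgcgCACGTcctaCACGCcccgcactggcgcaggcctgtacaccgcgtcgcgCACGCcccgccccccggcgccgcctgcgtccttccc
LOX (chr5:122078260-122078509, minus strand): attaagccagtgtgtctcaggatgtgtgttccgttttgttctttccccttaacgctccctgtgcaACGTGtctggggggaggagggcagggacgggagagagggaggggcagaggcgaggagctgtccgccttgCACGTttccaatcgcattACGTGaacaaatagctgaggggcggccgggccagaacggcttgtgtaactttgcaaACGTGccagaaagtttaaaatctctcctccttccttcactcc
PFKFB4 (chr3:48556804-48557053, minus strand): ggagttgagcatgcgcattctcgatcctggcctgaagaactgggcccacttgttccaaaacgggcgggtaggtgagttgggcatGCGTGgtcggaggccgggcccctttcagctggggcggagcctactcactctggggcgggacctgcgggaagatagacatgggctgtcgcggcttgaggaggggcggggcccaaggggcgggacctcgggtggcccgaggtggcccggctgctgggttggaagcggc
HIF1A (chr14:61695263-61695512, plus strand): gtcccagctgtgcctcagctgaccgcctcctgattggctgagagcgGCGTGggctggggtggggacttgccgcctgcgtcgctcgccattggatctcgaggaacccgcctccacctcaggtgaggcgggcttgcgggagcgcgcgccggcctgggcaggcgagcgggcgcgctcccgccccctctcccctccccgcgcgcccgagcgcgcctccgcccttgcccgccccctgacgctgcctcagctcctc
BNIP3 (chr10:131981924-131982173, minus strand): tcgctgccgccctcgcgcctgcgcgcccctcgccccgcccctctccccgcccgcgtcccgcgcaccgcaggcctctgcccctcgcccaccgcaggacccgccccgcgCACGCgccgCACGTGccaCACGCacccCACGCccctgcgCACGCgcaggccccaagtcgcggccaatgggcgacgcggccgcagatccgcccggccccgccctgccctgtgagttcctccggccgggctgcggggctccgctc

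LOX held 4 matches of ACGTG, between 185 and 42 bases before its start, and BNIP3 held 6 matches of both motifs between 143 and 104 bases before its start. ANKRD37 held 3 and BHLHE41 held 3, both including the palindrome. FAM162A held 4, and ENO2, PFKFB4 and HIF1A itself held 1 each. PFKFB1, PDK1 and P4HA2, which also fell, held neither motif in the 300 bases searched, from 250 before to 50 after the start. Of all 27305 RefSeq promoters of that length, 21.6% held ACGTG and 36.3% held GCGTG on either strand. Among genes that fell, 647 had a promoter in the table, and 32.6% of these held ACGTG. The share was 17.3% of 313 genes that rose and 23.2% of 15900 that did not pass. For GCGTG the shares were 44.8%, 37.7% and 42.9%. A match describes letters only, and binding was not measured.

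The HIF pathway itself changed little apart from the target. Of its 16 genes, 2 fell and 0 rose, with a median of -0.25 (medians of -0.14, -0.22 and -0.73 on the 3 slides). Besides HIF1A, the gene that fell was EGLN1, the main oxygen-sensing prolyl hydroxylase. Its levels were 15.82, 16.01 and 16.65 in siControl and 13.92, 14.67 and 14.89 in siHIF1A cells, a log2 difference of -1.66 (standard error 0.35), with no overlap. EGLN3 had a log2 fold change of -0.95 (standard error 0.46) and ARNT, the stable partner of HIF-1α, of -0.81 (standard error 0.40), and neither passed, while both did with the slide as a block, with which 4 genes of the list fell. EPAS1, which encodes HIF-2α, had 12.63, 13.54 and 14.92 against 12.71, 13.20 and 13.79, so the groups overlapped. Its log2 fold change was -0.46 (standard error 0.57), and 0.15 without siControl replicate 3. VHL had 17.38, 17.46 and 17.38 against 17.38, 17.51 and 17.36, a difference of 0.01 (standard error 0.22). The asparagine hydroxylase HIF1AN, at -0.18, and the coactivators CREBBP and EP300, at -0.73 and -0.61, did not pass.

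Glycolysis, which splits glucose into pyruvate without oxygen, held 23 tested genes, of which 11 fell and 0 rose. The median was -0.72, against -0.04 for all genes with a symbol, and -0.48, -0.66 and -1.16 on the 3 slides. Without siControl replicate 3, 11 fell as well, and 9 passed with any 1 array left out. The enzymes that make and break fructose-2,6-bisphosphate, which drives phosphofructokinase, included the largest fall of the list. PFKFB1 had 14.16, 13.49 and 14.50 in siControl and 11.70, 11.30 and 11.24 in siHIF1A cells. PFKFB4 had 13.05, 13.94 and 15.00 against 11.08, 11.50 and 12.35. PFKFB3 had 16.10, 16.33 and 17.14 against 15.18, 15.01 and 15.59. Their groups did not overlap, and they fell by 2.63, 2.35 and 1.26 on the log2 scale, whereas PFKFB2 had a difference of 0.20 (standard error 0.24).

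The falls were uneven between forms of the same enzyme. ENO2, the neuronal enolase, had 13.94, 14.34 and 16.02 against 11.92, 12.06 and 12.87, a log2 difference of -2.49 (standard error 0.55), or -1.86 without siControl replicate 3. ENO1, the common enolase, had 18.54, 18.57 and 18.52 against 18.34, 18.27 and 18.35, a difference of -0.22 (95% interval -0.72 to 0.27). HK2, the inducible hexokinase, fell by 1.45 on the log2 scale (standard error 0.38). HK1 had -0.98 (standard error 0.47), which did not pass, but did with the slide as a block. SLC2A3, a glucose transporter, had 13.39, 13.86 and 14.39 against 12.10, 11.93 and 12.70, a log2 difference of -1.64 (standard error 0.34). SLC2A1, the other transporter of the list, had 15.15, 15.94 and 16.84 against 14.95, 15.18 and 15.65. Its groups overlapped, and its log2 fold change of -0.72 (standard error 0.44) did not pass, but did with the slide as a block, and was -0.29 without siControl replicate 3. These pairs were not tested against each other.

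ALDOC, an aldolase, fell by 1.81 on the log2 scale (standard error 0.30) and GPI, which follows hexokinase, by 1.06 (standard error 0.24). PGK1, the first enzyme of glycolysis to yield ATP, had 18.49, 18.30 and 18.32 against 17.38, 17.23 and 17.67, a log2 difference of -0.94 (standard error 0.24) with no overlap. TPI1 and PGAM1 fell by 0.74 and 0.71. LDHA, which turns pyruvate into lactate and is a well known HIF-1 target, had 18.73, 18.54 and 18.55 against 18.24, 18.38 and 18.29. Each siHIF1A array was below each siControl array, but the difference of -0.30 (95% interval -0.81 to 0.21) did not pass. A second LDHA probe gave -0.54 and did not pass. GAPDH at -0.23 and PKM at -0.07 did not pass either, nor did the phosphofructokinases PFKL, PFKM and PFKP, at -0.48, -0.38 and -0.36. The size of such differences varied with the processing. Over the 9 genes of the lower steps, from TPI1 to LDHB, the median was -0.30. With the scanner's processed signal at the 75th percentile it was -0.81, and 4 of the 9 fell in both. The study's PCR of HIF-1 targets in these cells followed knockdown of another gene, GATA3, and not of HIF1A. Among those targets, CA9, SLC2A3 and PGK1 fell on the arrays compared here, and SLC2A1 and VEGFA did not pass.

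**Figure D3:**
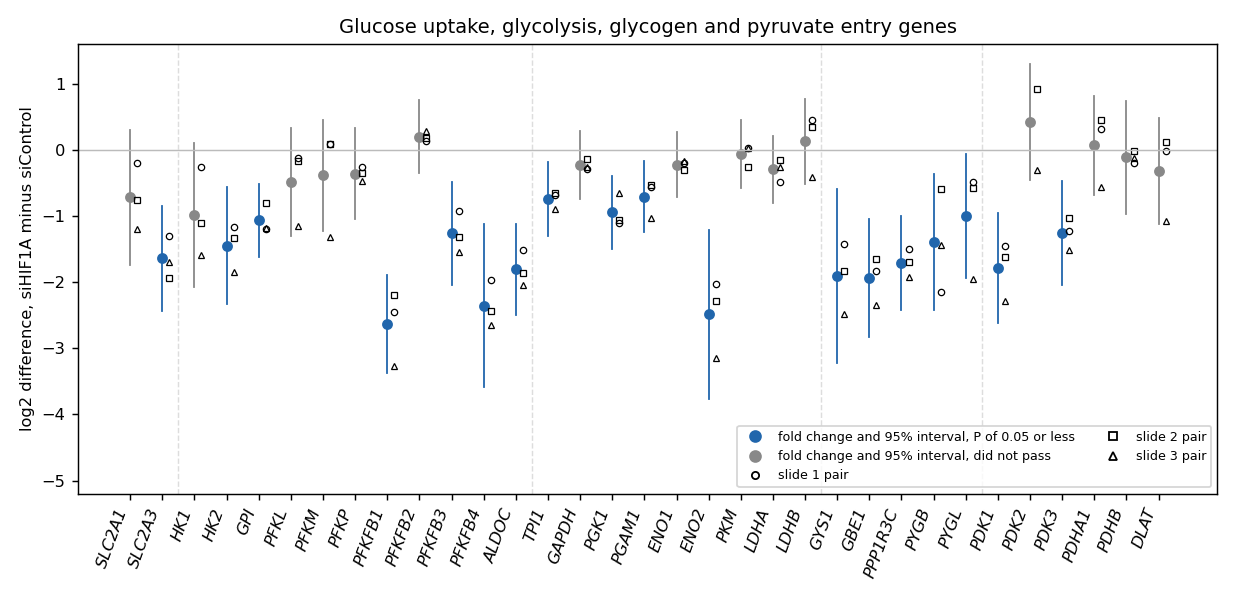
Log2 difference between siHIF1A and siControl cells (vertical axis) for glucose transporters, glycolytic enzymes, glycogen enzymes and pyruvate entry genes, separated by dashed lines. Filled points are fold changes with 95% intervals from limma, blue where the unadjusted P was 0.05 or less, and open symbols are the differences on the 3 slides. In the main fit, which is drawn, PFKFB1, ENO2 and PFKFB4 lie lowest, at -2.63, -2.49 and -2.35, while ENO1, LDHA, GAPDH and PKM lie within 0.30 of 0.

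Glycogen, the stored form of glucose, is built up by hypoxic cells. Of 12 glycogen genes 5 fell and 0 rose, with a median of -0.81, or -0.46 without siControl replicate 3, where again 5 fell. GBE1, the branching enzyme, had 12.88, 13.44 and 14.14 against 11.04, 11.79 and 11.79, a log2 difference of -1.94 (standard error 0.38). GYS1, the muscle form of glycogen synthase, fell by 1.91 (standard error 0.57), and PPP1R3C, which brings protein phosphatase 1 to glycogen, by 1.71 (standard error 0.30). In GBE1 and PPP1R3C the groups did not overlap, and in GYS1 they did not either, with 13.56, 14.50 and 15.78 against 12.14, 12.68 and 13.30, and the fall of GYS1 was -1.33 without siControl replicate 3. The phosphorylases PYGB and PYGL, which break glycogen down, fell by 1.39 and 1.00, PYGL having -0.55 without siControl replicate 3, so members of both directions of glycogen metabolism were lower. GYG1, the primer of glycogen synthesis, had 0.48 (standard error 0.43), or 0.93 without siControl replicate 3, where it rose.

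Pyruvate dehydrogenase kinases block the entry of pyruvate into mitochondria, and PDK1 and PDK3 fell. PDK1 had 13.63, 14.09 and 14.90 against 12.18, 12.47 and 12.62, a log2 difference of -1.79 (standard error 0.36) with no overlap. PDK3 fell by 1.26 (standard error 0.34). PDK2 and PDK4 lacked 1 and 3 values of 6 because spots were non-uniform, and had 0.42 and -0.34. Without siControl replicate 3 PDK2 rose, at 0.71. None of the 7 genes of the dehydrogenase complex and its phosphatases passed, with a median of -0.12. BNIP3 and BNIP3L, which mark mitochondria for removal, both fell. BNIP3 had 16.89, 17.12 and 17.65 against 14.82, 15.20 and 15.27, a log2 difference of -2.12 (standard error 0.29), and BNIP3L fell by 1.35. FAM162A, a mitochondrial protein of hypoxic cells, had 15.28, 15.41 and 16.37 against 12.96, 12.94 and 13.98. COXFA4L2, the gene formerly named NDUFA4L2, fell by 1.74 (standard error 0.71) with siControl replicate 3, and had -0.99 without it, which did not pass. Of 19 genes in this list 6 fell and 0 rose. By contrast 0 of 32 subunits of the respiratory chain passed the unadjusted threshold in limma, 0 passed after adjustment and 0 passed with the slide as a block. This holds for the brightest probe of each gene, and another probe of NDUFB8 passed, at -0.79. With array brightness as a covariate 4 of the 32 subunits were higher, as were 1992 of the 22291 tested genes with a symbol. The median of the subunits was -0.21, with 0.12, 0.14 and -0.88 on the 3 slides, so the shift lay on the slide of siControl replicate 3.

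Carbonic anhydrases, which handle the acid that glycolysis makes, went in different directions. CA9, the membrane enzyme used as a hypoxia marker in tumours, had a mean level of 16.36 ± 0.43 (SD, n = 3) in siControl cells, its highest value being 16.84, and levels of 14.41, 14.56 and 15.04 in siHIF1A cells. It fell by 1.69 on the log2 scale (standard error 0.31), with no overlap. CA12, also a membrane enzyme, had 7.79, 7.30 and 7.17 against 8.26, 8.45 and 9.48. It was well above background on no siControl array and on every siHIF1A array, and was at least 2.31-fold higher (log2 fold change 1.31, standard error 0.37). CA12 was the 1 gene of the 10 hypoxia lists that rose. The exporters SLC16A3 and SLC16A1, which carry lactate, had -0.34 and -0.68 and did not pass.

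Of 23 angiogenic and secreted factors and their receptors, 4 fell and 0 rose, with a median of -0.24. EFNA3, an ephrin ligand, had 13.70, 13.80 and 14.55 against 12.36, 12.24 and 12.40, a log2 difference of -1.68 (standard error 0.29). EDN1, the precursor of the vasoconstrictor endothelin-1, had 13.83, 14.25 and 14.56 against 12.88, 13.44 and 13.23, a log2 difference of -1.03 (standard error 0.29). ADM, the vasodilator adrenomedullin, fell by 0.77 (standard error 0.26). In these 3 genes the groups did not overlap. ANGPTL4, an angiopoietin-like protein that inhibits lipoprotein lipase, fell by 1.28 (standard error 0.54), but had -0.78 without siControl replicate 3, which did not pass. With the slide as a block 7 genes of the list fell, STC2, EFNA1 and LEP joining these 4.

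VEGFA, the main angiogenic factor of hypoxic tissue, had 17.44, 16.76 and 17.99 in siControl and 17.40, 17.42 and 17.56 in siHIF1A cells. All siHIF1A values lay within the siControl range. The log2 fold change was 0.06 (95% interval -0.72 to 0.84), a second probe gave 0.16 with a standard error of 0.83, and it was 0.36 without siControl replicate 3. PDGFA, PDGFB, PGF, VEGFB and VEGFC had 0.25, 0.35, 0.87, -0.61 and 0.04, and did not pass.

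Among 18 genes of collagen and matrix, 4 fell and 0 rose, with a median of -0.40. LOX, which crosslinks collagen, had 14.94, 15.49 and 16.84 against 12.89, 13.06 and 14.22, with slide differences of -2.05, -2.43 and -2.62. Collagen prolyl 4-hydroxylases followed, which are oxygen-dependent enzymes of the collagen chain. P4HA1 had 14.97, 15.67 and 16.65 against 13.84, 14.66 and 14.73, and P4HA2 had 13.47, 14.20 and 15.23 against 12.29 and 13.09, with 1 siHIF1A value missing. They fell by 1.35 and 1.61 on the log2 scale. FN1, which encodes fibronectin, fell by 0.88 (standard error 0.31). P4HA3 and P4HB, at -0.38 and -0.03, did not pass, nor did PLOD2, a lysyl hydroxylase, at -0.47. The collagens COL4A1, COL4A2, COL5A1 and COL1A2 had 0.05, -0.17, 0.05 and -0.09.

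Jumonji histone demethylases need oxygen to remove methyl groups from histones. Of 15 of these genes, 9 fell and 0 rose, with a median of -0.97 and medians of -0.69, -0.55 and -1.45 on the 3 slides. KDM3A, an H3K9 demethylase, had 12.85, 13.83 and 14.72 against 12.09, 12.23 and 12.79, a log2 difference of -1.43 (standard error 0.47). KDM4B had 14.65, 15.03 and 15.67 against 13.96, 14.13 and 14.14, a log2 difference of -1.04 (standard error 0.31). KDM5B, KDM6B, KDM4C, KDM5C, JMJD1C, KDM2A and KDM6A also fell, by between 0.90 and 1.18. In 14 of the 15 genes siControl replicate 3 was the highest siControl array, against 54.7% of genes with a symbol, and without it 6 genes fell and the median was -0.63. KDM4B and KDM6B passed with any 1 array left out. The count of 9 was 3 without siHIF1A replicate 1, 5 without siControl replicate 2 and 4 with the methods' t-test. KDM4A and KDM3B, at -0.13 and -0.36, did not pass.

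Of 17 transcription repressors and clock genes, 5 fell and 0 rose, with a median of -0.10. Besides BHLHE41, MXI1, an antagonist of MYC, had 15.42, 15.67 and 16.29 against 14.33, 14.74 and 14.77, a log2 difference of -1.18 (standard error 0.30). ZNF395, a zinc finger factor, fell by 0.87 (standard error 0.33). PER1, a clock repressor, had 13.74, 13.38 and 14.12 against 12.77, 11.88 and 12.36, a log2 difference of -1.41 (standard error 0.32). RORA, the nuclear receptor of the clock, had 9.80, 10.60 and 12.09 against 8.64, 8.89 and 9.71, and fell by 1.75 (standard error 0.58). Without siControl replicate 3 RORA had -1.12 and ZNF395 had -0.55, and 3 of the 5 calls of the list passed in all 6 fits that left out 1 array. BHLHE40, the close relative of BHLHE41, had -0.64 (standard error 0.34) and did not pass. The core clock genes CLOCK, BMAL1, CRY1 and PER2 had 0.06, -0.05, -0.09 and -0.10.

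The classifier of head and neck hypoxia names 15 genes, of which 14 were matched on the arrays. All 14 had a negative log2 fold change, and 12 of them fell, with a median of -1.48. The medians on the 3 slides were -1.19, -1.23 and -1.92, and without siControl replicate 3 the median was -1.12 and 12 fell. ANKRD37, FAM162A, LOX and BNIP3 led. KCTD11, an adaptor of a ubiquitin ligase, had 14.19, 14.82 and 15.67 against 12.51, 13.17 and 13.39, a log2 difference of -1.87 (standard error 0.42). NDRG1, a stress-induced protein, had 17.87, 17.70 and 17.93 against 16.86, 16.80 and 17.40 and fell by 0.81. The remaining classifier genes, EGLN3 and SLC2A1, did not pass, but did with the slide as a block. The classifier shares members with the other lists, so it is not a further set of evidence.

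Of 14 further hypoxia genes of stress, lipid droplets and nucleotides, 10 fell and 0 rose, with a median of -1.21. HILPDA, a lipid droplet protein that inhibits fat breakdown, had 17.38, 16.29 and 17.05 against 15.22, 14.52 and 14.74, a log2 difference of -2.08 (standard error 0.35). INSIG2, which holds back sterol synthesis, had 15.15, 15.42 and 16.24 against 13.45, 13.74 and 13.94 and fell by 1.90 (standard error 0.33). RBPJ, the DNA-binding partner of Notch, was 2.84-fold lower (standard error 0.36 on the log2 scale). MIR210HG, the host transcript of the hypoxia microRNA miR-210, had 12.43, 12.82 and 13.75 against 11.57, 11.98 and 11.66, a log2 difference of -1.26 (standard error 0.37). TMEM45A, AK4 and WSB1 fell by 1.35, 1.16 and 1.13, of which AK4 did not pass without siControl replicate 3 and WSB1 had -0.63. DDIT4, an mTOR inhibitor induced by several stresses, had 18.71, 18.23 and 18.07 against 18.24, 17.74 and 17.93, and its difference of -0.36 (standard error 0.27) did not pass. PLIN2 and NT5E had -0.48 and -0.01.

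Fewer genes rose, and the largest rises were smaller than the largest falls. By the same naming rule these were PADI1, SLC6A9, TAS2R13, NR2F6, E2F2, TLR8, GLP2R, RDH10, SYT12, FKBP5, ZNF407-AS1 and CDC25A, with log2 fold changes from 1.91 to 1.39. LINC00507, left out by that rule, had 1.59. In 11 of the 12 named genes the groups did not overlap, SLC6A9 being the exception, and 6 of the 12 passed with any 1 array left out. Of all genes with a value on all 6 arrays, 5.32% had every siHIF1A array above every siControl array, and the 12 were picked by the same rule as the falls. PADI1, which turns arginine of proteins into citrulline, had 9.07, 8.95 and 10.32 in siControl and 11.71, 11.31 and 11.06 in siHIF1A cells, a log2 difference of 1.91 (standard error 0.41). NR2F6, an orphan nuclear receptor, had 11.98, 12.42 and 12.84 against 13.85, 14.33 and 13.89, a log2 difference of 1.61 (standard error 0.30). SYT12, a synaptotagmin, had 11.68, 11.20 and 11.55 against 12.88, 13.00 and 12.82, a log2 difference of 1.42 (standard error 0.24). These 3 passed in every fit with 1 array left out. TAS2R13, TLR8 and ZNF407-AS1 had their lowest value on siControl replicate 3, and rose by 1.66, 1.47 and 1.40, against 0.96, 0.91 and 0.76 without it. For GLP2R and FKBP5, other probes of the same gene did not pass, with 0.30 and 0.56 for GLP2R and 0.11 for FKBP5. The other probe of ZNF407-AS1 gave -0.56 and did not pass, and the mean of its probes, 0.42, did not pass either.

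Genes of DNA replication were higher more often than lower. Of 26, 24 had a positive log2 fold change, 4 rose and 0 fell, with a median of 0.33. E2F2, a transcription factor of the start of S phase, had 9.83, 10.80 and 10.90 in siControl and 11.73, 12.61 and 11.89 in siHIF1A cells, a log2 difference of 1.57 (standard error 0.38). CCNE2, a cyclin of the same transition, had 10.49, 11.50 and 11.46 against 12.12, 13.34 and 12.18, a log2 difference of 1.39 (standard error 0.43). For both genes the groups did not overlap and every fit with 1 array left out passed. RRM2, a subunit of ribonucleotide reductase, rose by 1.05 (standard error 0.40) and MCM3, part of the replicative helicase, by 0.91 (standard error 0.38). These calls were lost when single arrays were left out.

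The shift of the replication list differed between slides, with medians of 0.60, 0.58 and -0.13. Without siControl replicate 3 the list had 7 genes that rose and a median of 0.49, and with array brightness as a covariate 14 rose. Over all 22291 tested genes with a symbol, 423 rose in the main fit, 1992 with the covariate and 766 without siControl replicate 3. The part of that array in the result was not tested. PCNA, the sliding clamp, had 13.14, 14.05 and 14.37 against 14.27, 15.09 and 14.18, so it was higher on slides 1 and 2 and lower on slide 3. MCM6 and CDC45 had log2 fold changes of 0.79 and 0.62 and did not pass. CDC25A, a phosphatase that opens S phase and was not in the list, had 8.87, 10.93 and 10.76 against 10.99, 12.37 and 11.38. Its log2 difference of 1.39 (standard error 0.60) lay at the threshold, passed in 3 of the 6 fits that left out 1 array, and was 0.74 without siControl replicate 1, which did not pass. Of 22 mitosis genes 0 passed the unadjusted threshold in limma, 0 passed after adjustment, and 0 passed with the slide as a block, without siControl replicate 3 or with the brightness covariate. Their median was -0.09, with 0.12, 0.20 and -0.79 on the 3 slides. These values are for the brightest probe of each gene, and other probes of CENPF and CCNB1 passed, at -0.81 and 0.99.

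**Figure D4:**
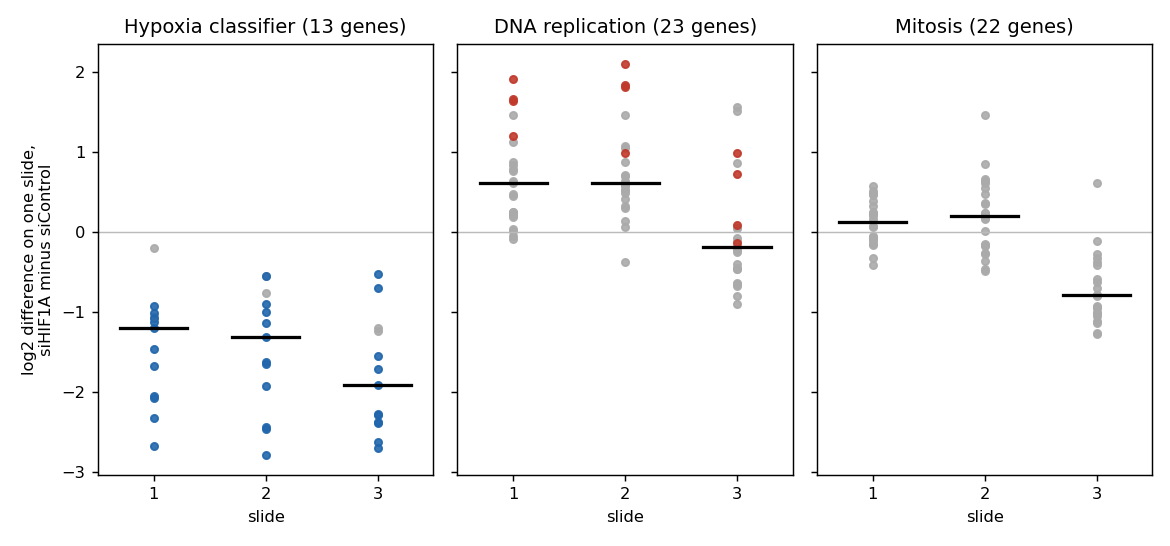
Log2 difference between the siHIF1A and the siControl array of each slide (vertical axis) for genes with a value on all 6 arrays in 3 lists. Each point is a gene, blue where it fell, red where it rose and grey where it did not pass an unadjusted P of 0.05 in limma, and bars are medians over the genes drawn. Every classifier gene drawn is below 0 on every slide, while most replication genes are above 0 on slides 1 and 2 and the median of the mitosis genes is above 0 on those slides and below 0 on slide 3.

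In the other lists few genes passed. Of 21 genes of cholesterol and fatty acid synthesis, 2 fell and 0 rose, while the median was 0.29. INSIG1, a brake on sterol synthesis, had 15.19, 14.21 and 15.21 against 13.80, 12.83 and 13.20, a log2 difference of -1.59 (standard error 0.38), and SCD, a fatty acid desaturase, fell by 0.98 (standard error 0.33). FASN and ACLY, which make fatty acids and their precursor, had 0.62 and 0.68 and did not pass, though ACLY rose without siControl replicate 3, at 1.07. Of 18 genes of the ATF4 amino acid response, 1 rose, the glycine transporter SLC6A9, with 11.20, 12.47 and 13.66 against 13.20, 14.84 and 14.52. It was higher within each slide, by 2.00, 2.37 and 0.86, although the groups overlapped. It passed in 2 of the 6 fits that left out 1 array and had 1.12 without siControl replicate 1, which did not pass. ASNS and TRIB3, common markers of this response, had 0.20 and -0.14. Of 15 genes of the unfolded protein response 1 rose, SDF2L1, at 0.81 (standard error 0.24), and HSPA5, the main chaperone of the list, had 0.34, or 0.72 without siControl replicate 3, where it passed. DDIT3, a stress factor of the ATF4 list, had -0.11.

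Of 23 interferon-stimulated genes 1 rose, OAS2, at 0.74 (standard error 0.30). Other probes of OAS2 gave -0.06 and -0.40 and did not pass. Without siControl replicate 3 OAS2 did not pass and 4 other genes of the list rose, as did 766 of the 22291 tested genes with a symbol. Of 23 invasion and epithelial-mesenchymal genes 1 fell, TJP1, a tight junction protein, at -1.10 (standard error 0.42), and it did not pass without siControl replicate 3. SNAI1, SNAI2, TWIST1, ZEB1, CDH1, CDH2 and VIM had log2 fold changes between -0.52 and 0.48 and did not pass. Of 12 iron genes 1 fell, ACO1, an iron-sensing aconitase, at -1.06, or -0.66 without siControl replicate 3, while TFRC, the transferrin receptor, had 0.29 (standard error 0.76). FTL, a ferritin gene, did not pass on its brightest probe, at -0.48, but its other probes fell, at -1.10 and -0.82. STEAP3 had -0.02 on its brightest probe, and another of its probes rose, at 0.72. Of 14 BCL2 family genes 1 fell. This was BIK, a pro-apoptotic member, with 9.79, 10.65 and 12.01 against 8.46, 8.81 and 9.33, a log2 difference of -1.95 (standard error 0.55), or -1.35 without siControl replicate 3. Of the 7 genes that the study had picked from these arrays, which are not independent evidence of their direction, ARHGDIB, IGFBP3, LEF1 and TGFB2 fell, at -1.55, -1.42, -1.27 and -0.66. TGFB2 did not pass without siControl replicate 3 or with the slide as a block.

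Differences within slides gave a description that does not rest on the group spread. Of 40739 genes with a value on all 6 arrays, 173 were lower by at least 1 on the log2 scale on every slide (0.425%) and 13 were higher by as much (0.0319%). With scaling alone changed to the 75th percentile these numbers were 182 and 9, and with the scanner's processed signal at the 75th percentile they were 257 and 157. Of the 173, 119 had a symbol, 31 of them in a gene list, and 171 of the 173 also fell in limma. The 8 genes with a symbol that were higher on every slide were SYT12, A4GALT, LINC00507, LINC01103, DKFZp451B082, SDC1, NR2F6 and MORC4, of which LINC01103 did not pass in limma without siControl replicate 3. A4GALT, a glycolipid galactosyltransferase, had 12.85, 12.42 and 12.75 against 14.04, 13.99 and 14.01, and SDC1, the proteoglycan syndecan-1, had 11.35, 12.04 and 12.20 against 12.51, 13.59 and 13.25. Without the size limit, 3247 genes (7.97%) had all 3 siHIF1A arrays below all 3 siControl arrays and 2168 (5.32%) had them above.

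Detection gave a further view. Of all genes, 37005 were well above background on all 6 arrays and 3167 on none. On every siControl array and on no siHIF1A array there were 140, of which 43 fell in limma, 17 of them with a symbol. The reverse held for 13, of which 8 rose, 5 of them with a symbol. Per array, 42504, 41405 and 41314 genes were well above background in siControl and 40399, 41939 and 38758 in siHIF1A cells. The part of this difference in the 2 counts was not tested. The bounds that follow rest on group means and leave out the spread between arrays, so a change may be smaller than its bound. After KISS1R the largest bounds were at least 3.67-fold lower for CGA, the common subunit of glycoprotein hormones, with 9.08, 10.75 and 8.78 against 7.40, 7.97 and 7.26, and at least 2.67-fold lower for the readthrough transcript MSANTD3-TMEFF1. LEF1, a transcription factor of the Wnt pathway, had 8.09, 9.09 and 9.41 against 7.63, 7.41 and 7.74 and was at least 2.41-fold lower. A second TYRP1 probe, detected on 1 array of each group, did not pass, while the brightest gave at least 2.35-fold lower. In the other direction LINC00507, MCIDAS, CA12, DKFZp451B082 and ENTPD1 were higher by at least 2.50, 2.41, 2.31, 2.15 and 1.84-fold. ENTPD1 had overlapping groups, a difference of -0.01 on slide 2 and a second probe at 0.18 that did not pass, and its call held in 1 of the 6 fits that left out 1 array.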

How the data were processed

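RNA of hypoxic OEC-M1 cells was labelled in 1 colour and hybridised to Agilent arrays. Per the labels, spots were read with Feature Extraction 10.5.1.1, and the deposited scanner files give spot intensities. A deposited table gives log2 values that matched the log2 processed signal less a constant per array to within 0.001 for 99.8% to 99.9% of probes.

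Median spot intensity was background-corrected (normexp, offset 50) and quantile normalized, with control spots left out and non-uniform spots set to missing. Accessions of 31104 of 58201 probes matched a RefSeq gene, giving 22439 symbols among 47753 genes, and the brightest probe represented a gene. Of 8317 genes with more than 1 probe, 6 had probes that passed in opposite directions. The 6 arrays were fitted in limma 3.58.1 (R 4.3.3) without a block. Calls used the study's unadjusted P of 0.05, with Benjamini-Hochberg adjusted values beside it. The procedure was tested on simulated data. The number of arrays limits the precision.

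Samples were grouped by their transfection label. The gene lists, the members and the tests were chosen with earlier results of these data known. Genes were named as the 12 largest falls and 12 largest rises with a symbol that had the same direction on every slide, the 5 largest detection bounds each way, list members, and genes past adjustment with the slide as a block. Among the falls and rises, locus numbers, open reading frame names, LINC names and clone names (DKFZ, FLJ and KIAA) were left out. The replicate number is also the slide in the scanner files, and deviations of same-numbered arrays from their group means correlated at 0.602, 0.120 and 0.062. For differently numbered arrays the values ran from -0.575 to 0.403, so only slide 1 had a same-number value above that range. Alternatives changed the background correction, the scaling, the filters, the probe rule, the test, a slide block, array brightness as a covariate, and the arrays included. Arrays of the other knockdown of the series were not used here. Some list members are counted with their lists but not reported by name here.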

Additional observations from a re-analysis of the deposited data

How the results depend on the processing

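HIF1A kept its direction and an unadjusted P of 0.05 or less in every alternative with that threshold, with log2 fold changes from -2.06 to -2.52, and at an adjusted P its -2.29 did not pass (adjusted P = 0.489 from limma). Over the alternatives, the results for the largest falls kept their call in 220 cases and lost it in 11, and those for the largest rises kept it in 210 and lost it in 41, with 0 reversed. The 2549 calls became 960 (672 lower, 288 higher) with RefSeq mRNA probes alone, where fewer genes were tested, 4778 (2610 higher) with array brightness as a covariate, and 0 (0 lower, 0 higher) at an adjusted P, where the methods' t-test had 1. Leaving out 1 array gave 1238 to 5295 calls, 764 to 3031 lower and 474 to 2264 higher, the highest without siControl replicate 1 and the lowest without siHIF1A replicate 3. With the slide as a block, the paired analysis, 3655 genes passed (2258 lower, 1397 higher). Falls of 2-fold on every slide, 173 in number, became 262 with the deposited table, 112 with RefSeq mRNA probes and 190 to 366 with 1 slide left out. The 13 such rises became 21 without the normexp offset, 157 with the processed signal at the 75th percentile, 23 with non-uniform spots kept, 229 with the deposited table, 6 with RefSeq mRNA probes and 101 to 141 with 1 slide left out. The 51 genes detected in one group and past the threshold became 79 with the processed signal at the 75th percentile, 78 with the deposited table, 0 at an adjusted P and 38 to 124 with 1 array left out. Except where the construction shows it, the cause was not tested. Per list, the counts ran from 0 at an adjusted P to 14 of the classifier, 14 of glycolysis, 9 of glycogen, 9 of histone demethylases and, higher, 14 of replication. Signal over background limits the dim probes, which have only bounds.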

Other observations

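CFAP96 lies 7711 bases from ANKRD37 in RefSeq, and both were among the largest falls, with log2 fold changes of -2.35 (standard error 0.54) and -2.72 (standard error 0.43). Without siControl replicate 3 these were -1.76 and -2.48. LRP2BP and UFSP2, which overlap ANKRD37, had -0.26 (standard error 0.32) and -0.57 (standard error 0.29), and neither passed. CCDC110, 44459 bases away, had 0.11 (standard error 0.25). This neighbourhood was looked at after the values were seen.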
